A study of Mus musculus with 8 samples.

Results

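MHC class II genes and the invariant chain were examined in detached mouse retinas that did or did not carry a human transferrin transgene. The genes were chosen by symbol, and all 6 (H2-Aa, H2-Ab1, H2-Eb1, Cd74, Ciita and H2-DMa) were found among the 56465 features of the deposited table, 1 feature each. RNA was sequenced from 4 retinas of mice expressing human transferrin (TG 2, TG 5, TG 6 and TG 8) and 4 retinas of WT mice (WT 3, WT 4, WT 5 and WT 7). All 8 retinas carried the strain label C57Bl/6J. Every retina was detached by injecting 10 µl of sodium hyaluronate under it and was collected 4 days later, so both groups share the detachment. By their labels, 2 TG retinas came from males and 2 from females, and 3 WT retinas from males and 1 from a female. Of the TG retinas 2 came from right and 2 from left eyes, and of the WT retinas 3 from right eyes and 1 from a left eye. The sources used here give neither the age of the mice, nor the promoter of the transgene, nor how TG and WT mice were bred. The labels do not state that each retina came from a different mouse, so p-values measure only the spread between these samples.

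Class II molecules are pairs of an alpha and a beta chain that carry peptides from endosomes to the cell surface, where CD4+ T cells read them. The invariant chain, encoded by Cd74, fills the peptide groove of new molecules and steers them to endosomes, where proteases cut it down and H2-DM exchanges the last fragment for a peptide. Ciita encodes the transactivator that switches on these genes, often after interferon gamma. In the retina few cells carry class II at rest, and microglia, macrophages and dendritic cells are the known sources when tissue is injured.

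Libraries held 61535690 to 70540242 counted reads in TG and 68433927 to 75866423 in WT. Values below are normalized reads, meaning counts divided by the authors' size factor for the library. The retinal label fitted the data, with Gnat1, the rod transducin gene, at 497332 to 768096 normalized reads in TG and 596067 to 719670 in WT. Markers of the pigment epithelium, the layer from which the retina is detached, varied widely. The sum of 6 such genes ran from 8427 to 42052 in TG and from 4826 to 91825 in WT, with the highest value in WT 3 and the next in TG 2. In whole retina, a change in the number of class II cells and a change in RNA per cell cannot be told apart.

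None of the class II genes differed between TG and WT beyond the spread between retinas. Means were higher in TG for the 5 genes that could be tested. By limma, which takes differences of mean log2 values, log2 fold changes (TG over WT) ran from 0.25 for Cd74 to 0.79 for H2-Eb1. The place of Cd74 depended on the method, since its log2 fold change was 0.72 by edgeR and 0.71 by DESeq2, where H2-DMa was lowest at 0.32. The level instead differed most between single retinas, with TG 5, TG 6 and WT 3 high and TG 8 and WT 4 low. H2-DMa, the editor of the peptide groove, kept within a much narrower range than the other 4. The sixth gene, Ciita, was close to absent.

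H2-Aa, the alpha chain of the I-A molecule, had 271, 774, 488 and 99.5 normalized reads in TG 2, TG 5, TG 6 and TG 8, against 434, 94.8, 169 and 191 in WT 3, WT 4, WT 5 and WT 7. The groups overlapped across most of their range, since TG 8 lay beside the lowest WT retina and WT 3 lay close to TG 6. H2-Ab1, the beta chain that pairs with H2-Aa, had 298, 722, 440 and 148 in the TG retinas (in the same order), against 466, 139, 279 and 226 in the WT retinas. TG 5 was again highest, and TG 8 and WT 4 were the lowest. The ratio of H2-Aa to H2-Ab1 reads stayed between 0.671 and 1.11 in TG and between 0.606 and 0.932 in WT, the narrowest of the ratios to H2-Ab1 in both groups.

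H2-Eb1, the beta chain of the second class II molecule, I-E, had 177, 653, 552 and 54.6 normalized reads in TG 2, TG 5, TG 6 and TG 8, against 372, 70.9, 76.1 and 193 in WT 3, WT 4, WT 5 and WT 7. Its spread was wider than that of the I-A chains, and the groups overlapped. The highest TG retina exceeded the lowest 11.96-fold for H2-Eb1, against 7.78-fold for H2-Aa and 4.87-fold for H2-Ab1. The alpha partner of H2-Eb1 is known to be disrupted in the C57BL/6 haplotype, and its feature, H2-Ea-ps, had 0 reads in all 8 libraries, below the floor of 3 reads per library.

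Cd74, the invariant chain, had 283, 852, 580 and 41.9 normalized reads in TG 2, TG 5, TG 6 and TG 8, against 542, 158, 164 and 209 in WT 3, WT 4, WT 5 and WT 7. It had the widest span of the 5 tested genes, with a 20.3-fold difference between TG 5 and TG 8. TG 8 lay below all WT retinas, and WT 3 stood apart from the other WT retinas. The same 3 libraries (TG 5, TG 6 and WT 3) held the highest values of H2-Aa, H2-Ab1, H2-Eb1 and Cd74.

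H2-DMa, whose protein pairs with H2-DMb to release the invariant chain fragment, had 288, 422, 258 and 324 normalized reads in TG 2, TG 5, TG 6 and TG 8, against 281, 248, 255 and 252 in WT 3, WT 4, WT 5 and WT 7. The 4 WT values lay within 1.14-fold of each other, and TG 6 lay among them, so the groups overlapped here too. TG 8, lowest of all for Cd74, was the second highest for H2-DMa. Ciita had 8 reads in TG 5 and 0 in the other 3 TG libraries, against 14 reads in WT 4, 2 in WT 7 and 0 in WT 3 and WT 5. Its mean of 2.74 normalized reads was below the minimum of 10 set for testing. The libraries with most class II RNA were not those with Ciita reads, apart from TG 5. At this depth a level of Ciita under 3 reads per library may be missed.

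**Figure D1:**
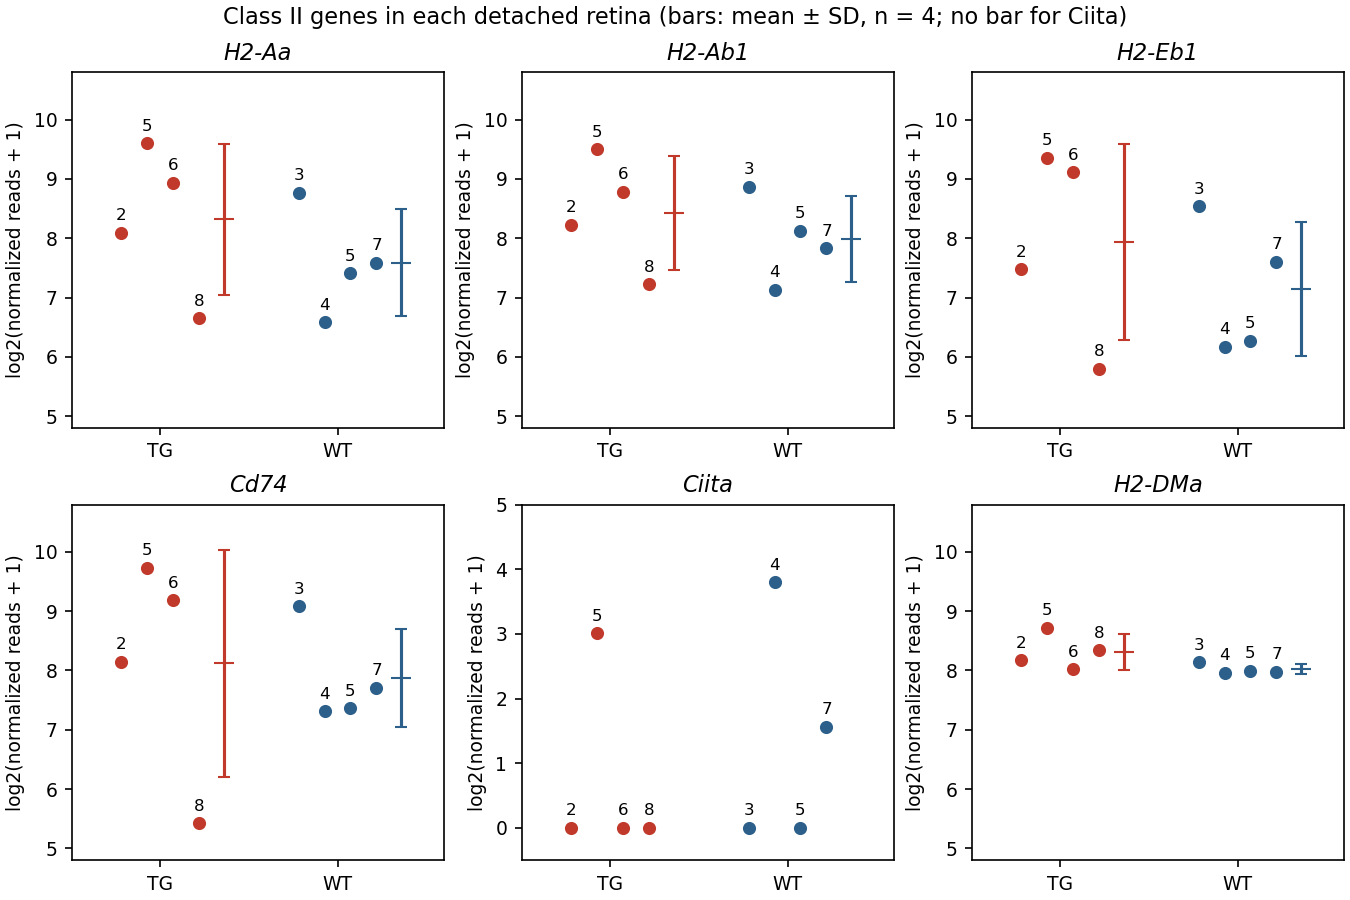
Each point is 1 retina, numbered by its replicate, on a log2(normalized reads + 1) axis for the 6 class II genes, with TG left of WT and the mean ± SD of the 4 retinas beside the points (none for Ciita). TG 5, TG 6 and WT 3 are high for H2-Aa, H2-Ab1, H2-Eb1 and Cd74, the groups overlap in every panel, and H2-DMa spans 248 to 422 normalized reads.

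Per kilobase of exon, Cd74 had the highest level in both groups, with 262 ± 210 normalized reads per kb in TG and 160 ± 110 in WT (SD, n = 4 each). In TG the level per kb then ran through H2-Eb1 (185 ± 148), H2-Ab1 (157 ± 95.1), H2-Aa (107 ± 76.6) and H2-DMa (93.7 ± 20.6). In WT the order after Cd74 was H2-Ab1 (108 ± 53.8), H2-Eb1 (91.5 ± 72.5), H2-DMa (75.1 ± 4.45) and H2-Aa (58.5 ± 38.7). From Cd74 to the last of these 5, neighbours in either order differed by less than the larger of their standard deviations. Ciita was far below, at 0.185 ± 0.369 in TG and 0.389 ± 0.649 in WT.

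The test for TG against WT was limma on log2(normalized reads + 1), fitted over the 19798 features that averaged 10 or more and adjusted over all of them. Of the 5 class II genes tested, 0 passed an adjusted p of 0.05, where 0.0101% of all features passed (0.00505% as higher in TG), and 0 had an unadjusted p under 0.05, where 4.64% of features did. edgeR and DESeq2 on the recovered reads also called 0 of the 5, where they called 0.0101% and 0.0808% of features. All 5 log2 fold changes were above 0, as were 47.8% of those of all features. These directions are not independent, since 4 of the 5 genes had the same 3 highest libraries.

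H2-Aa averaged 408 ± 291 normalized reads in TG and 222 ± 147 in WT (SD, n = 4 each), and log2 fold change 0.73 ± 0.57 (SE) with a 95% interval of -0.49 to 1.95 and a limma adjusted p of 0.92. H2-Ab1 averaged 402 ± 244 in TG and 277 ± 138 in WT, with a log2 fold change of 0.44 ± 0.45 (interval -0.53 to 1.41). For H2-Eb1 the means were 359 ± 288 in TG and 178 ± 141 in WT and the log2 fold change 0.79 ± 0.71 (interval -0.75 to 2.33). All 3 intervals held 0 and reached beyond a doubling, in the TG direction.

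Cd74 averaged 439 ± 352 normalized reads in TG and 268 ± 184 in WT, and its log2 fold change was 0.25 ± 0.73 (SE) with an interval of -1.33 to 1.83 and a limma adjusted p of 0.97. H2-DMa averaged 323 ± 71.2 in TG and 259 ± 15.4 in WT, and its log2 fold change was 0.30 ± 0.23 (SE) with an interval of -0.20 to 0.79 and a limma adjusted p of 0.92. Its interval was the narrowest of the 5 and held no difference as large as a doubling. Ciita, tested only where no minimum was set, gave -0.59 ± 1.01 (log2 fold change, SE) and a limma adjusted p of 0.91.

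Single retinas moved these values strongly. Without TG 8 the log2 fold changes were 1.29 for H2-Aa, 0.85 for H2-Ab1, 1.50 for H2-Eb1 and 1.15 for Cd74. In that limma fit 3 of the 5 genes had an unadjusted p under 0.05, as did 637 of all 19798 features. These 3 are not independent, since they share their highest libraries. None of the 5 passed after adjustment (adjusted p = 0.9955, limma), where 1 of all features did. Without TG 5 the log2 fold changes were 0.31, 0.09 and 0.32 for the 3 chains and -0.28 for Cd74. Without WT 3, the library with most pigment epithelium RNA, they were 1.13 for H2-Aa, 0.74 for H2-Ab1, 1.26 for H2-Eb1 and 0.66 for Cd74. H2-DMa stayed between 0.16 and 0.39 whichever library was left out. In males only (2 TG and 3 WT retinas) the log2 fold changes were 1.26 for H2-Aa, 1.42 for H2-Eb1 and 1.02 for Cd74, and 0 of the 5 passed. With 1 female WT retina, females gave no comparison of their own.

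**Figure D2:**
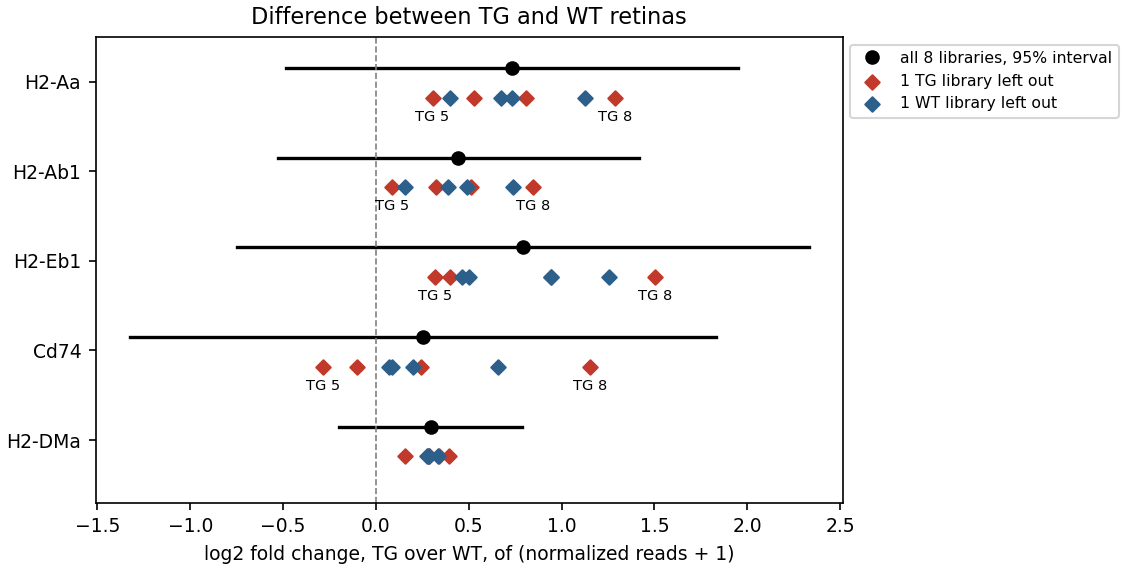
Log2 fold change of TG over WT for the 5 tested genes on the log2(normalized reads + 1) scale, as a black point with its 95% interval from all 8 retinas, and as diamonds when 1 retina is left out (red for a TG retina, blue for a WT retina). All 5 intervals cross 0, and leaving out TG 5 or TG 8 moves Cd74 between -0.28 and 1.15.

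The class II promoters are read through a shared layout of an X box, bound by the RFX complex, and a Y box, bound by NF-Y. RefSeq (GRCm38.p6) gave promoter windows for 3 of the 6 genes, H2-Aa, H2-Eb1 and H2-DMa (2 windows), while H2-Ab1, Cd74 and Ciita had none in the table. Windows ran from 250 bases before to 50 bases after the start site and were searched on both strands for a Y box (CCAAT), the X box core and a gamma-activated site (TTCNNNGAA). No matches overlap in the windows given here. Of 32851 windows of all genes, 37.4% held the Y box pattern, 0.968% the X box pattern and 8.30% the gamma-activated site. The 250 bases before the start site are given for H2-Aa and H2-Eb1, 2 genes that varied together across retinas. For H2-DMa, which did not follow them, those of the first of its 2 windows are given. Each runs 5′ to 3′ on the gene's strand, with matches to the X and Y boxes in capitals.
H2-Aa: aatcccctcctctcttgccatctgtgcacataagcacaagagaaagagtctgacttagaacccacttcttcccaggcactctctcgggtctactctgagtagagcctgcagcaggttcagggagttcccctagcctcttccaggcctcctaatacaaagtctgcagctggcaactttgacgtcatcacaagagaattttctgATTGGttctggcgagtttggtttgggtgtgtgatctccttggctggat
H2-Eb1: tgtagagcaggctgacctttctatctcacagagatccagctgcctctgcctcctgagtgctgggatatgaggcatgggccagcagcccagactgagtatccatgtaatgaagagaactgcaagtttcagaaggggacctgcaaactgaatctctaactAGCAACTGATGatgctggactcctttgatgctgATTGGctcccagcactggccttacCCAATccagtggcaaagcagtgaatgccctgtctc
H2-DMa: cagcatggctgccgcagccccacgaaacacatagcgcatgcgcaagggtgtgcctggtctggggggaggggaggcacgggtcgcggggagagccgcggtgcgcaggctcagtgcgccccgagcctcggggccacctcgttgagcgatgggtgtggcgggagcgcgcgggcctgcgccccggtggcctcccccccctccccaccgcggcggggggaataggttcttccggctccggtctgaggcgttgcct
The H2-Aa stretch is chr17:34287824-34288073 on the minus strand, with 1 Y box match beginning 48 bases before the start site and no match to the X box pattern as written. The H2-Eb1 stretch is chr17:34305617-34305866 on the plus strand, with an X box match beginning 92 bases and Y box matches beginning 59 and 35 bases before the start site. The H2-DMa stretch is chr17:34122582-34122831 on the plus strand and held no match to the 3 patterns. Its other window, further into the gene, held 1 Y box match. Both windows lie toward the 5′ end of the span listed for H2-DMa, 34122831 to 34139101. Start sites further along that span had no window, so the lack of X box matches holds for these 2 windows only. Which start site the retinas used was not tested. Of the other class II genes of the region, 5 (H2-DMb1, H2-DMb2, H2-Oa, H2-Ob and H2-Eb2) had a window, of which 5 held a Y box match and 3 an X box match. A match here describes letters and shows no binding. The X box pattern is strict, and a stretch without a match may hold a box of somewhat different sequence.

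The accessory genes of the class II route did not pass the test either. Of 12 such genes, 9 had enough reads, and 7 lay higher and 2 lower in TG, where 47.8% of all features lay higher. With limma, edgeR or DESeq2, 0 passed. Their median log2 fold change was 0.12, beside -0.02 for all features tested. In limma 1 had an unadjusted p under 0.05, beside 4.64% of all features. That gene was Ctss, the protease that cuts the invariant chain in antigen-presenting cells. It had 4909, 7115, 4856 and 3601 normalized reads in TG 2, TG 5, TG 6 and TG 8, against 3622, 2977, 2958 and 3496 in WT 3, WT 4, WT 5 and WT 7. The groups overlapped only through TG 8 and WT 3, and TG over WT came to 0.61 ± 0.18 (log2, SE) at a limma adjusted p of 0.92.

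Ifi30, a thiol reductase that unfolds antigens in endosomes, had 310 to 1239.8 normalized reads in TG and 499 to 794 in WT. March1, a ubiquitin ligase that removes class II from the cell surface, averaged 5358 ± 888 normalized reads in TG and 6450.4 ± 1440.1 in WT (SD, n = 4 each). H2-Oa, a chain of H2-O, which restrains H2-DM, had 6.83 to 44.5 in TG and 0 to 49.1 in WT. H2-DMb1, the partner chain of H2-DMa, had only 22.4 to 65.2 in TG and 10.6 to 76.8 in WT, and its highest library was WT 3. Per kb its mean level was 23.4 in TG and 24.2 in WT, against 93.7 and 75.1 for H2-DMa. H2-Eb2 had 10 reads in TG 2, 8 in TG 6 and 0 in the other 6 libraries.

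Genes upstream of class II lay on both sides of 0. Of 16 genes of the RFX, NF-Y, CREB and interferon gamma route, 15 were tested, and 7 lay higher and 8 lower in TG. Of all features, 47.8% lay higher. With limma, edgeR or DESeq2, 0 of the 15 passed, and the median log2 fold change was -0.03. In limma 1 had an unadjusted p under 0.05, beside 4.64% of all features. Ifng itself had 0 reads in all 8 libraries. Jak2, a kinase of the interferon gamma receptor, averaged 1207 ± 122 normalized reads in TG and 1573 ± 227 in WT (SD, n = 4 each), or -0.38 ± 0.16 as TG over WT (log2, SE) at a limma adjusted p of 0.92. Creb1 averaged 190 ± 41.9 in TG and 282 ± 73.5 in WT, and the RFX subunit gene Rfxap 1662 ± 232 in TG and 1389 ± 280.5 in WT. Irf1, a factor that interferon gamma induces upstream of Ciita, had 172 to 472 in TG and 210 to 252 in WT, with the highest values in TG 2 and TG 5.

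Costimulatory genes, whose products complete the signal to T cells, were few in reads. Of 6, 5 were tested, and 3 lay higher and 2 lower in TG, where 47.8% of all features lay higher. With limma, edgeR or DESeq2, 0 of the 5 passed, beside 0.0101%, 0.0101% and 0.0808% of all features. In limma 0 had an unadjusted p under 0.05, beside 4.64% of all features. The median log2 fold change was 0.02, beside -0.02 for all features tested. Cd86 averaged 53.4 ± 23.3 normalized reads in TG and 29.9 ± 15.6 in WT, with overlapping groups. Cd40 had 4.88 to 34.6 in TG and 5.52 to 25.6 in WT.

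Of the immune cell marker lists, the macrophage and monocyte sum had the order of libraries closest to that of class II. The summed level of the 6 class II genes ran TG 5, TG 6, WT 3, TG 2, WT 7, WT 5, WT 4, TG 8 from high to low, at 3430, 2318, 2095, 1317, 1072, 943, 724 and 668 normalized reads. The sum of 10 macrophage and monocyte markers gave the same order except that WT 4 and WT 5 changed places, with 646 to 8283 in TG and 1396 to 3467 in WT. Lyz2, a lysozyme of macrophages, and Cd68, a lysosomal protein of phagocytes, made up most of that sum. Lyz2 had 6351 normalized reads in TG 5 and 361 in TG 8, against 820 to 2296 in WT, and Cd68 had 1439 in TG 5 and 126 in TG 8, against 324 to 797 in WT. Other markers of the list had other orders. Lyve1, a receptor of some resident macrophages, was highest in TG 8, at 149, with 86.3 in TG 5 and 63.4 to 144 in WT. Ly6c2, a monocyte surface protein, had 75.3 in TG 6 but 10.6 in TG 5, against 12.7 to 38.9 in WT. Of these 10 markers 8 were tested, and 5 lay higher and 3 lower in TG, where 47.8% of all features lay higher. With limma, edgeR or DESeq2, 0 of the 8 passed, beside 0.0101%, 0.0101% and 0.0808% of all features. In limma 0 had an unadjusted p under 0.05, beside 4.64% of all features. Defining monocyte genes were sparse, with Ccr2 at 0 to 7.04 in TG and 0 to 17.4 in WT.

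Microglia markers behaved differently in TG 8. Their sum was 10195, 14340, 9489 and 9258 normalized reads in TG 2, TG 5, TG 6 and TG 8, against 9770, 7774, 7723 and 8084 in WT 3, WT 4, WT 5 and WT 7. TG 8, lowest for class II, thus lay above WT 4, WT 5 and WT 7 for microglia markers. All 10 markers lay higher in TG, where 47.8% of all features did. These directions are not independent, since TG 5 was the highest TG retina for each marker. Of the 10, 0 passed with limma, edgeR or DESeq2. In limma 2 had an unadjusted p under 0.05, beside 4.64% of all features. In the same 2 the groups did not overlap, beside 2.53% of all features. Those were Siglech, a lectin receptor, at 305 ± 42.5 in TG and 171 ± 43.2 in WT, and Olfml3, a secreted microglial protein, at 3545 ± 809 in TG and 2358 ± 439 in WT (SD, n = 4 each). The part of these cells in the class II values was not tested.

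Set against the mean log2 level of the microglia markers in the same library, H2-DMa varied least, at -1.01 ± 0.19 in TG and -0.97 ± 0.19 in WT (log2 difference, SD, n = 4 each). It also varied least unscaled, with highest over lowest at 1.63 in TG and 1.14 in WT. Scaled WT values ran from -1.17 (WT 3) to -0.71 (WT 5), a wider spread than unscaled. Whether H2-DMa follows these markers was not tested. Relative to the same markers, Cd74 was at -1.20 ± 1.70 in TG and -1.12 ± 0.61 in WT, reaching -3.65 in TG 8 and -0.01 in TG 6. H2-Aa ran from -2.42 to -0.20 in TG and from -2.35 to -0.55 in WT. H2-Eb1 stood at -1.38 ± 1.44 in TG and -1.84 ± 0.92 in WT. Relative to microglia markers, then, the difference between the group means was -0.04 for H2-DMa, -0.08 for Cd74, 0.11 for H2-Ab1, 0.40 for H2-Aa and 0.46 for H2-Eb1, each smaller than the SD within TG.

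**Figure D3:**
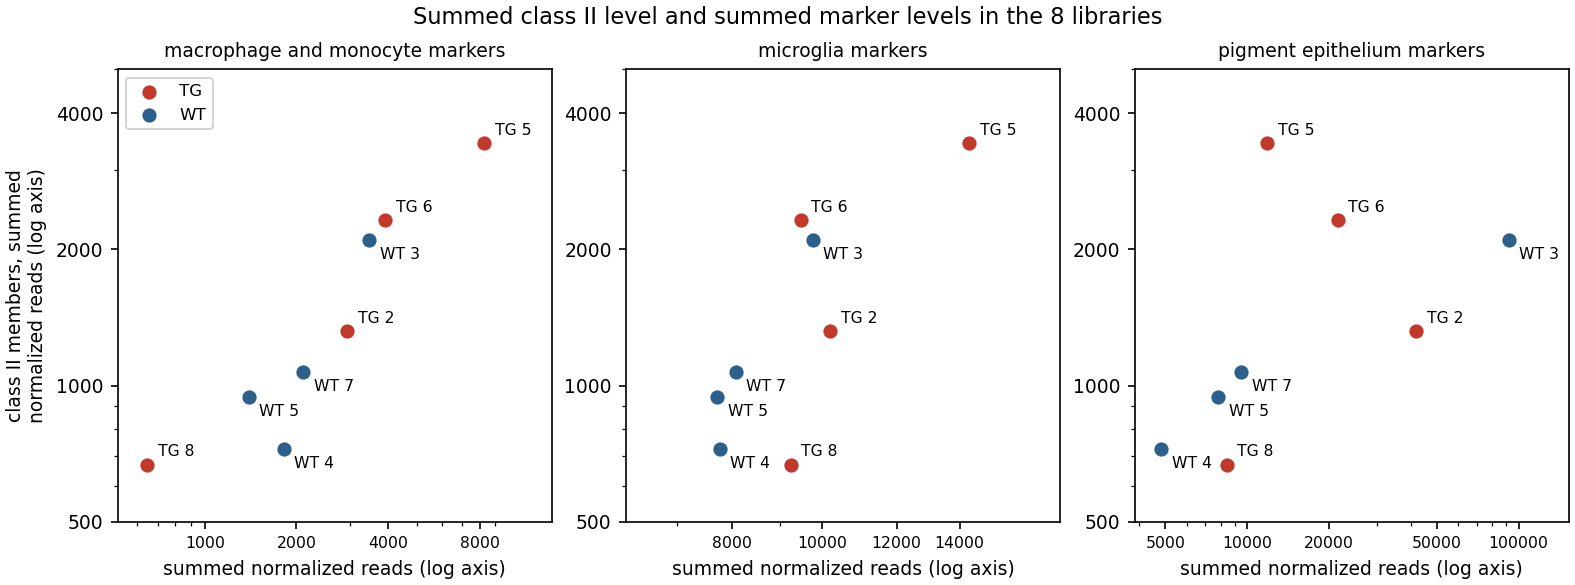
Summed normalized reads of the 6 class II genes (vertical, log axis) against the summed normalized reads of 3 marker lists (horizontal, log axes) in the 4 TG (red) and 4 WT (blue) retinas. TG 8 has the lowest class II and macrophage and monocyte sums (668 and 646) but a microglia sum of 9258, and WT 3 has the highest pigment epithelium sum, 91825.

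Dendritic cell, B cell and T cell markers were at low levels. Of 8 dendritic cell markers 4 were tested. With limma, edgeR or DESeq2, 0 of the 4 passed, beside 0.0101%, 0.0101% and 0.0808% of all features. In limma 0 had an unadjusted p under 0.05, beside 4.64% of all features. Itgax, an integrin shared with activated microglia, had 94.0, 148, 39.5 and 25.4 normalized reads in TG 2, TG 5, TG 6 and TG 8, against 167, 11.0, 19.0 and 19.5 in WT 3, WT 4, WT 5 and WT 7. Clec9a had reads in TG 6 only, at 7.41, and Xcr1 had 3.55 in TG 2 and 5.28 in TG 5. The summed dendritic cell list was 89.7 to 307 in TG and 59.8 to 227 in WT. The summed B cell markers, without the merged immunoglobulin heavy chain feature, were 12.3 to 81.0 in TG and 36.8 to 68.2 in WT. TG 6 had the second highest class II sum and the lowest B cell sum. Cd3e, a defining T cell gene, had 0 reads in all 8 libraries, and the 6 T cell markers found summed to 86.4 to 181 in TG and 69.6 to 137 in WT. The part of these cells in the class II values was not tested.

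Across the 8 libraries, the features whose log2 level was most like the mean standardised level of the 5 tested class II genes were Ly86, Aif1, Plk3, the merged feature of Ang and Rnase4, Cybb and Emp3. Their Pearson r ran from 0.95 to 0.98, the highest of 13605 features with a symbol and a mean of at least 50. These values are a description, since the 6 were picked as the highest and all points share their library and depth. Ly86, which encodes a partner of a Toll-like receptor relative, had 1359, 2335, 1517 and 881 normalized reads in TG 2, TG 5, TG 6 and TG 8, against 1450, 965, 962 and 1018 in WT 3, WT 4, WT 5 and WT 7. Aif1, the gene of the microglia and macrophage protein Iba1, had 471, 819, 636 and 289 in the TG retinas in that order, against 728, 279, 350 and 333 in the WT retinas. Cybb, a subunit of the phagocyte oxidase, had 48.8 in TG 8 and 447 in TG 5, against 57.1 to 248 in WT. Microglial homeostatic genes followed the class II pattern less closely, with r of 0.47 for Tmem119 and 0.49 for P2ry12 in the same ranking, beside 0.90 for Lyz2. The pigment epithelium gene Rpe65 had r = 0.52.

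H2-Aa, H2-Ab1, H2-Eb1 and H2-DMa lie together on chromosome 17 (mm10), from 34282744 to 34287819, 34263227 to 34269418, 34305867 to 34316674 and 34122831 to 34139101. Cd74 lies on chromosome 18, and Ciita on chromosome 16 from 10480059 to 10527640. The first 3 share positions with the span listed for Notch4, which averaged 73.5 normalized reads, and Ciita with that of Dexi, and how reads there were assigned is not known. Within 500 kb of H2-Ab1, 51 other features were tested, of which 31 lay higher and 20 lower in TG, where 47.8% of all features lay higher. Their median log2 fold change was 0.07, against 0.59 for the 4 chosen class II genes in the window. The 51 include the class II genes H2-Oa, H2-DMb1 and H2-DMb2, which lay on both sides of 0. Their log2 fold changes were 1.04 ± 1.13, 0.14 ± 0.65 and -0.29 ± 1.33 (SE). None of the 51 passed with limma, and 4 had an unadjusted p under 0.05 (H2-K1, Psmb9, Psmb8 and Tap2), beside 4.64% of all features. In 4 (7.84%, beside 2.53% of all features) the groups did not overlap. These were H2-K1, Tap2, Wdr46 and the merged feature of Slc39a7 and H2-Ke6, with log2 fold changes of 0.84, 0.47, 0.25 and 0.23. H2-K1, a class I gene 268 kb before H2-Ab1, had an SE of 0.18, against 0.45 to 0.71 for the 3 classical class II chains. Which alleles each mouse carried in this segment was not tested.

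**Figure D4:**
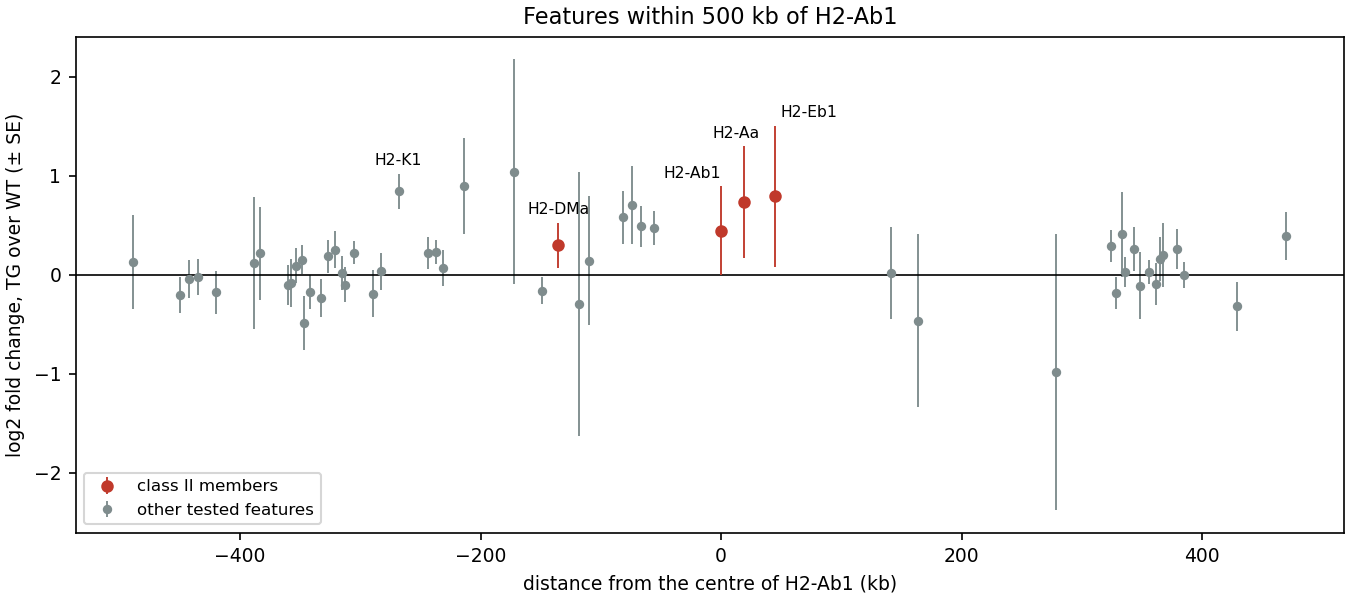
Log2 fold change of TG over WT (± SE) for the 55 tested features within 500 kb of H2-Ab1, by distance from its centre, with the 4 chosen class II genes in red. The class II genes H2-Oa (1.04), H2-DMb1 (0.14) and H2-DMb2 (-0.29) are drawn among the other features. The red points lie at 0.30 to 0.79 with wide errors, and most other features lie near 0.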

How the data were processed

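RNA was sequenced from stranded poly(A) libraries, per the labels' protocols. The deposited values are a signal, read counts per feature that the authors divided by a size factor for each library with DESeq2. The submitters' processing notes list the build mm10 (GRCm38) and, beside DESeq2, the tools STAR 2.4.0, SAMtools, Picard and FastQC. The sources used here do not name the counting tool, its strand setting or its annotation release, so overlapping and near-identical genes may share reads. Columns are whole multiples of their smallest positive value (100% of values within 0.01 of a whole number), which gave back the reads. Unmapped sample columns numbered 0.

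A gene is the feature of its symbol with the highest mean. TG was compared with WT by limma 3.58.1 (R 4.3.3) with a trended variance on log2(value + 1), which understates changes of low genes, for features averaging 10 or more, with Benjamini-Hochberg adjustment over all of them and a threshold of 0.05. edgeR 4.0.16 and DESeq2 1.42.0 on the reads were alternatives. The procedure was tested on simulated data. Exon length is the union of exons in GENCODE M21 (GRCm38). The floor of 3 reads covers counting error only. Members and lists were chosen with earlier results of these data known. The rule for naming genes took the 6 members, up to 4 genes per list with the smallest p, listed genes at 0 in every library, and the 6 most like features, of which a part is named. H2-DMb1, H2-Eb2, Lyz2, Cd68, Ccr2, Clec9a, Xcr1, Tmem119, P2ry12, Rpe65, Psmb8, Psmb9, H2-K1, Tap2, Wdr46 and Slc39a7 fall outside it, and their values were seen before they were chosen. Ighm, which the table merges with other immunoglobulin genes, was left out of the B cell sum. T cell gene Trac was not analysed here.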

Additional observations from a re-analysis of the deposited data

Results flagged for a closer look

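Of 46 groups of 4 values examined (the class II genes, the list sums and the 6 most like features), 7 held a value far from the other 3. For independent, normally distributed values, chance flags about 1 group in 20, a rate that does not hold here. The values are not independent, since 5 of the 7 come from WT 3. The 6 most like features were picked for following the class II genes, so their flags add nothing separate to that of Cd74. Ciita values were mostly 0 and not normally distributed. The number of flags therefore measures no excess. Cd74 in WT 3 had 542 normalized reads, and the gap to the next WT retina was 0.869 of the WT range. Ly86 (1450), Aif1 (728) and Cybb (248) were likewise high in WT 3. The same library had a pigment epithelium sum of 91825, a gap of 0.946 of the range, and whether tissue taken with the retina bears on the class II level there was not tested. Ciita had 7.04 normalized reads in TG 5, with the other TG retinas at 0, and 12.9 in WT 4, from 8 and 14 reads.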

How the results depend on the processing

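In all 21 alternatives run for each of the 5 tested class II genes, 0 passed the threshold (adjusted p from 0.77 to 0.9996). The log2 fold change kept its sign in every alternative for H2-Aa (0.31 to 1.29), H2-Ab1 (0.09 to 0.85), H2-Eb1 (0.32 to 1.50) and H2-DMa (0.16 to 0.44). Cd74 turned negative without TG 5 (-0.28) and without TG 6 (-0.10) and ran up to 1.15 without TG 8. Its value was 0.72 with edgeR and 0.71 with DESeq2 against 0.25 with limma. The measures differ, since limma compares mean log2 values and the other 2 methods model mean reads (439 in TG and 268 in WT). The part of the low TG 8 value (41.9) in this gap was not tested. Without both WT 3 and TG 6 the values were 0.92 for H2-Aa, 0.62 for H2-Ab1, 0.86 for H2-Eb1, 0.31 for Cd74 and 0.44 for H2-DMa. Of all features, 2 passed in the comparison as reported, 16 with DESeq2, 4 with males only, and 1 in each of 5 others (sex as a term, no variance trend, a mean of at least 50, no filter, and a pseudocount of 0.5). Leaving out each library in turn gave 1 to 3. With eye as a term, 2 of all features and 0 of the 5 class II genes passed. No paired analysis was run, since the labels do not state that any TG retina is paired with a WT retina. Ciita was below the minimum mean and was tested only without it.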
